A study of Mus musculus with 6 samples.

Results

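Aldehyde dehydrogenases oxidise reactive aldehydes to carboxylic acids with NAD+ or NADP+ as the electron acceptor. The 10 genes described are Aldh1a1, Aldh1b1, Aldh1l1, Aldh2, Aldh3a1, Aldh3a2, Aldh3b1, Aldh6a1, Aldh7a1 and Aldh9a1, found by symbol among 26359 identified rows of the deposited expression table. They were selected on earlier results of the same comparison, so their differences between the groups are given as a description, with standard errors and without p-values. All 10 had a row and 9 passed the filter on low counts. The exception was Aldh1b1, at 0 to 5 counts per library.

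The data are 6 RNA-seq libraries of poly(A) mRNA from AML12, a non-tumorigenic mouse hepatocyte line, in a study of TM9SF1 in liver ischemia-reperfusion injury. The cell line label reads sh-NC for 3 libraries and sh-1 for the other 3, and both groups are the same line with no further treatment named. The study describes AML12 lines with stable knockdown and overexpression of TM9SF1, and the labels sh-NC and sh-1 look like names of short hairpins, the former a negative control, although no label gives a target. The titles of the sh-NC libraries carry only the name AML12, and those of the sh-1 libraries carry Sh-2, so whether the control cells held a hairpin is not known. A difference between the groups therefore cannot be told apart from an effect of transduction, of selection or of 1 hairpin, and no second hairpin was analysed here. Nothing states that the replicates were separate cultures, so the spread and the p-values cover these libraries alone and may be technical.

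Total counts were 36997329 to 51334798 per library. Tm9sf1 itself measured 47.2, 53.4 and 45.8 CPM (counts scaled by TMM to a library of 1000000) in sh-NC and 35.3, 36.8 and 36.5 CPM in sh-1. Its log2 fold change was -0.43 (SE 0.10, edgeR adjusted p = 0.00186), and -0.09 (edgeR adjusted p = 0.36) after a correction for the way each library's counts depended on the GC content and length of transcripts. That dependence, called the trend from here on, separated the groups. In sh-NC, CPM relative to each gene's mean over all libraries moved by 0.28 to 0.52 log2 units per 10 points of GC content. In sh-1 it moved by -0.53 to -0.29. The opposite signs follow from taking values relative to that mean, so only the difference between the groups is measured. The part of the trend in the results was not tested. Values with the trend removed are given for the members. For other genes and lists they are given where they end a call, turn a direction or move a value by over 1.5 times. Of 14 hepatocyte markers, 13 were tested, 2 rose and 9 fell (33.3% and 32.2% over all genes tested). With the trend removed 5 of the falls were kept. The summed level of the 14 markers was 9717 to 11964 CPM in sh-NC and 6632 to 8259 CPM in sh-1. Most of it came from Krt8 and Krt18 (2546 to 5905 CPM each). The fall of Krt8 was lost with the trend removed (-0.02). The log2 fold change of Krt18 was -0.88, and -0.47 with the trend removed. The risers were Hnf4a, a hepatocyte transcription factor, from 150 ± 5.24 to 337 ± 25.5 CPM (SD, n = 3 each), and Apob, a lipoprotein component, from 4.01 to 7.73 CPM up to 27.8 to 41.2 CPM (log2 fold change 2.53, or 1.53 with the trend removed). Of the other secreted or surface products, Alb was at 1.77 to 5.05 CPM, Apoe at 1.17 to 4.93 CPM, Ttr at 0.120 to 2.15 CPM and Asgr1 at 0 to 0.121 CPM. The cholangiocyte list summed to 1822 to 2051 CPM in sh-NC and 3386 to 3831 CPM in sh-1, and 1 of its 4 tested genes rose and 2 fell. Spp1 rose from 130 to 159 CPM up to 1974 to 2289 CPM (edgeR adjusted p = 1.99e-09), Sox9 fell from 75.6 ± 8.26 to 24.5 ± 4.52 CPM (edgeR adjusted p = 5.87e-07), Krt7 fell from 774 ± 57.3 to 436 ± 41.1 CPM (edgeR adjusted p = 9.99e-06), and Krt19 measured 969 ± 87.1 and 1057 ± 54.4 CPM. Summed markers reached at most 7.49 CPM for leukocytes, 2.23 CPM for endothelium and 10 CPM for stellate cells and fibroblasts.

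As background, the family divides by compartment and substrate. Aldh2 and Aldh1b1 act in mitochondria on acetaldehyde, and Aldh2, with Aldh3a1, also clears 4-hydroxynonenal and related products of lipid peroxidation. Aldh1a1 turns retinaldehyde into retinoic acid in the cytosol, Aldh1l1 oxidises 10-formyltetrahydrofolate, and Aldh3a2 and Aldh3b1 act on long-chain and other lipid-derived aldehydes. Aldh6a1 acts in the breakdown of valine and pyrimidines, Aldh7a1 in the breakdown of lysine, and Aldh9a1 in a step of carnitine synthesis. The liver is the main site of ethanol and acetaldehyde oxidation.

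Promoters are shown for 3 genes. Aldh1l1 had the largest higher value in sh-1 among the genes with a promoter sequence, Aldh1a1 was the only one lower, and Aldh9a1 held the only match to the core of the antioxidant response element. Each line gives the 250 bases before a RefSeq transcription start (RefSeq, GRCm38.p6), 5′ to 3′ on the gene's strand, with motif matches in capitals. The windows are chr6:90550543-90550792 (+), chr19:20601718-20601967 (+, the downstream of the gene's RefSeq starts) and chr1:167349741-167349990 (+). Those of Aldh1l1 and Aldh1a1 lie inside the gene spans given below, which start at 90486427 and 20492715.
Aldh1l1: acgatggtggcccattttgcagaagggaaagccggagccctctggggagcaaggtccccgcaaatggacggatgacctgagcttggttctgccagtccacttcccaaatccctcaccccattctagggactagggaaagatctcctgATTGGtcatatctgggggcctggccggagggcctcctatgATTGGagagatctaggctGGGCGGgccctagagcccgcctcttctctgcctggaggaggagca
Aldh1a1: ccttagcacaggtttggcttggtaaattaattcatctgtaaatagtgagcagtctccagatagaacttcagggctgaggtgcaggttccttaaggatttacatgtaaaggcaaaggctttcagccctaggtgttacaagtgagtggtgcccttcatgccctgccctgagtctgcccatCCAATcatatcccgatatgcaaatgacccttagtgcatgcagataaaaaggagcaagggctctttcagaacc
Aldh9a1: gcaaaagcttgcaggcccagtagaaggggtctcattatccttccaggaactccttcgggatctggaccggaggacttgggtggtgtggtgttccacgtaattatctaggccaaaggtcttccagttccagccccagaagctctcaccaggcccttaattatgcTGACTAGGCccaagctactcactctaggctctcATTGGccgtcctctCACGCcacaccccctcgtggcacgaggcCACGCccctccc
The motifs searched, on both strands so that capitals may spell either, were TGACNNNGC (antioxidant response element core), GCGTG (xenobiotic response element core, bound by the aryl hydrocarbon receptor), the CCAAT box and the GC box GGGCGG.

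Promoter sequences of 7 of the 10 genes were used, and none was used for Aldh2, Aldh3a1 or Aldh7a1. The antioxidant core occurred in Aldh9a1, against 10.2% of all 32851 windows of the same length. The xenobiotic core occurred in Aldh3a2 and Aldh9a1 (28.2% of all windows). CCAAT occurred in Aldh1a1, Aldh1l1, Aldh3a2, Aldh6a1 and Aldh9a1 (33.8%), so it was found both in the gene lower in sh-1 and in genes higher there. In Aldh1a1 it was in the window shown, and the window of the upstream start (chr19:20492333-20492582) held no match to any motif. A gene was counted if any of its windows matched, whereas the percentages are shares of single windows. The GC box occurred in Aldh1b1, Aldh1l1, Aldh3a2 and Aldh3b1 (32.7%). A match is a run of letters in the window and says nothing about binding.

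Of the 9 selected genes that were tested, 7 were higher and 1 was lower at an edgeR adjusted p under 0.05, and 5 were at least 2-fold higher. Over all 13197 genes tested, 65.5% passed this threshold, 33.3% higher and 32.2% lower, and 17.1% were called and at least 2-fold higher. In 8 of the 9 genes the groups did not overlap, against 70.3% of all genes tested. These counts describe genes selected on this contrast, and nothing is read from them. The median log2 fold change of the 9 was 1.04, against 0 over all genes tested. With the GC content and length trend removed it was 0.86, against -0.02 over all genes, and 9 of the 9 passed (8 higher, 1 lower), where 67.6% of 11956 genes did. Of the 5 genes at least 2-fold higher, Aldh3a2 (log2 fold change 0.95) and Aldh6a1 (0.86) were then under 2-fold. Aldh1l1 (2.10), Aldh3a1 (2.20) and Aldh3b1 (1.57) stayed above it.

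**Figure D1:**
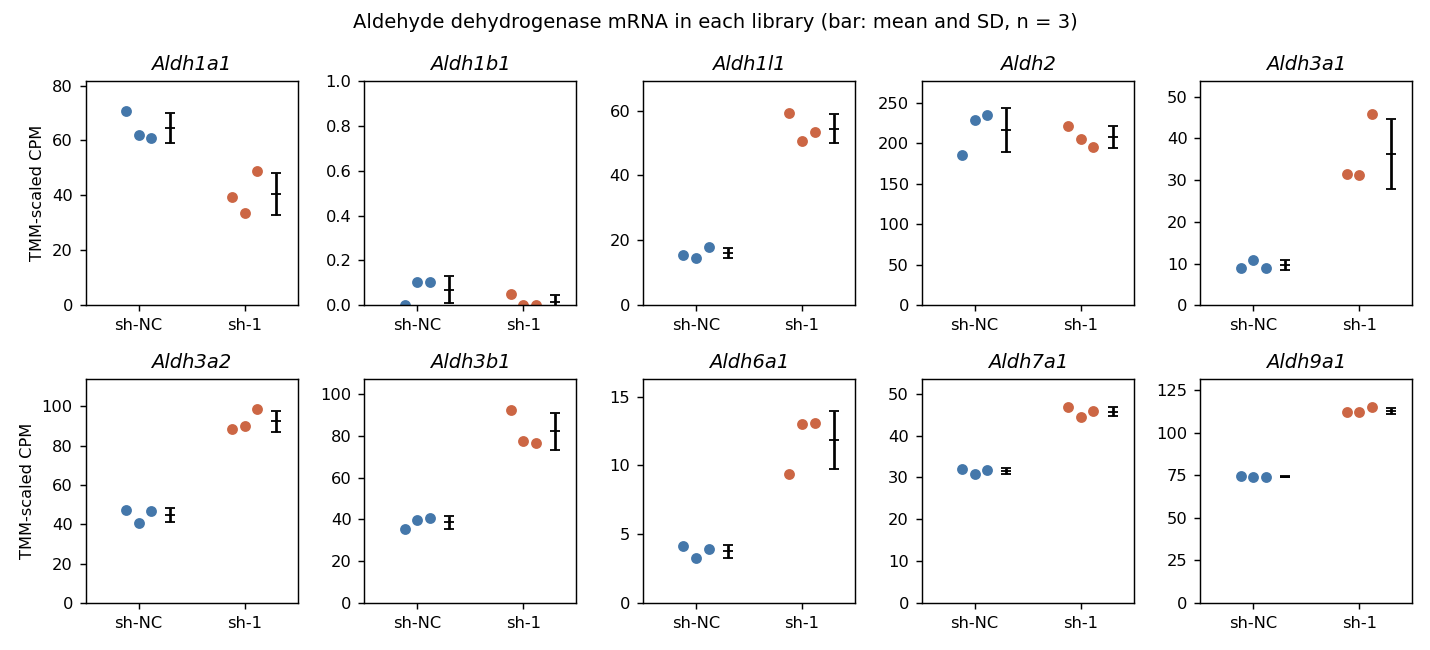
TMM-scaled CPM of the 10 genes in each library (points, vertical axes from 0), with the mean and SD of each group of 3. The groups are apart in 8 panels; they overlap for Aldh2 and for Aldh1b1, which is near 0.

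Aldh2 was the most abundant of the 10 and did not separate the groups. The gene (chromosome 5, 121566027 to 121593824, GRCm38, minus strand) measured 186, 229 and 235 CPM in sh-NC and 222, 205 and 196 CPM in sh-1. The sh-1 values all lie within the sh-NC range, and the log2 fold change was -0.06 (SE 0.10). Its sign was not fixed: the value was 0.31 (SE 0.08) with the GC content and length trend removed and 0.01 with upper-quartile scaling. Its relative Aldh1b1 (chromosome 4, 45799022 to 45804604) had 0, 4 and 5 counts in sh-NC and 2, 0 and 0 counts in sh-1. Aldh1b1 did not pass the filter on low counts, so no fold is given.

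Aldh1a1, the cytosolic retinaldehyde dehydrogenase, was the only member lower in sh-1. The gene (chromosome 19, 20492715 to 20643465, plus strand) measured 70.7, 62.1 and 60.9 CPM in sh-NC and 39.3, 33.7 and 48.8 CPM in sh-1. Every sh-1 library lay below every sh-NC library. The log2 fold change was -0.67 (SE 0.13), -0.81 to -0.54 with a library left out, and -1.08 (SE 0.11) with the trend removed. Aldh1a7 is a close copy on the same chromosome, and reads of the pair may be split between them. It measured 0.582 to 2.03 CPM in sh-NC and 2.44 to 2.55 CPM in sh-1, so it is small beside Aldh1a1.

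Of 25 other retinoid genes listed, 16 were tested, 3 rose and 9 fell (33.3% and 32.2% over all genes tested). The median log2 fold change was -0.72. With the trend removed the same 3 rises and 8 of the falls were kept, and the median was -0.20. Rdh13, a retinol dehydrogenase family member, fell from 46.7 ± 2.08 to 14.8 ± 1.77 CPM (SD, n = 3 each; log2 fold change -1.65, edgeR adjusted p = 1.6e-07). Rxrb, a retinoid X receptor, fell by 1.58 on the log2 scale (edgeR adjusted p = 1.37e-07) and Rbp4, the plasma retinol carrier, by 0.86 (edgeR adjusted p = 9.75e-06). Stra6, the receptor that takes up retinol from Rbp4, went the other way, from 8.92 to 14.7 CPM up to 61.2 to 67.5 CPM (log2 fold change 2.35, edgeR adjusted p = 1.69e-07). The fall of Rxrb was smaller with the trend removed, at -0.90, and so was that of Rbp4, at -0.49.

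Aldh1l1 and its mitochondrial counterpart Aldh1l2 were both higher in sh-1. Aldh1l1 (chromosome 6, 90486427 to 90600203, plus strand), whose promoter is shown above, measured 15.6, 14.7 and 17.8 CPM in sh-NC and 59.2, 50.5 and 53.5 CPM in sh-1. The lowest sh-1 library stood far above the highest sh-NC library, with a log2 fold change of 1.76 (SE 0.11), or 2.10 (SE 0.10) with the trend removed. Aldh1l2, which was not among the selected genes, rose from 2.90 ± 0.526 to 10.2 ± 1.00 CPM (log2 fold change 1.81, edgeR adjusted p = 6.23e-06). Exons of Aldh1l2 overlap D10Wsu102e on the other strand, which fell from 118 to 141 CPM down to 54.7 to 62.9 CPM (log2 fold change -1.10, or -2.21 with the trend removed). The annotated transcript of D10Wsu102e is 123179 bases long, and how far this length sets the value of -2.21 was not tested. Whether the counting used strand is not stated.

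Of 21 listed folate one-carbon genes, Aldh1l2 among them, 20 were tested, 8 rose and 7 fell, shares near those over all genes tested (33.3% higher and 32.2% lower). With the trend removed 7 rises and 6 falls were kept. The median log2 fold change was -0.15, and 0.06 with the trend removed. Mthfd2, a mitochondrial methylenetetrahydrofolate dehydrogenase, fell from 99.5 ± 3.23 to 41.2 ± 2.93 CPM (-1.27, edgeR adjusted p = 1.47e-07). The folate carrier Slc19a1 also fell (-1.23, edgeR adjusted p = 1.55e-06).

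Aldh3a1 had the largest log2 fold change of the 10. This cytosolic enzyme of aromatic and medium-chain aldehydes (chromosome 11, 61207537 to 61218421, plus strand) measured 8.85, 10.9 and 8.96 CPM in sh-NC and 31.4, 31.3 and 45.9 CPM in sh-1. The groups were far apart although sh-1 replicate 3 stood above the other two. The log2 fold change was 1.92 (SE 0.17), 1.72 to 2.03 with a library left out, and 2.20 with the trend removed. Aldh3a2, the fatty aldehyde dehydrogenase of the endoplasmic reticulum, lies tail to tail with Aldh3a1 on the minus strand (61223417 to 61267464), the ends of the pair being 4995 bases apart. It measured 47.2, 40.7 and 46.6 CPM in sh-NC and 88.6, 90.1 and 98.5 CPM in sh-1, so both neighbours were higher, by 1.92 and by 1.04 (SE 0.09). With the trend removed the log2 fold change of Aldh3a2 was 0.95 (SE 0.08).

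Aldh3b1 was also about doubled. The gene (chromosome 19, 3913491 to 3929808, minus strand) measured 35.2, 39.8 and 40.8 CPM in sh-NC and 92.6, 77.4 and 76.6 CPM in sh-1, without overlap. Its log2 fold change was 1.09 (SE 0.10), and 1.57 (SE 0.07) with the trend removed. Its relatives Aldh3b2 and Aldh3b3, which may share reads with it, were at 0 to 0.145 CPM and at 0 in every library.

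Among genes of the aryl hydrocarbon receptor pathway, for which Aldh3a1 is a known target, 10 of 13 were tested. Of these 6 rose and 2 fell (33.3% and 32.2% over all genes tested), and the median log2 fold change was 1.25. With the trend removed 4 rises and none of the falls were kept, and the median was 0.74. Nqo1, a quinone reductase that also answers to the antioxidant factor NRF2, rose from 0.367 to 0.580 CPM up to 3.81 to 7.01 CPM (log2 fold change 3.49, edgeR adjusted p = 1.83e-06). Cyp1a1, the classical target of the receptor, rose from 1.56 to 1.81 CPM up to 6.64 to 10.1 CPM (2.32, edgeR adjusted p = 2.28e-06). Ahr itself rose from 5.86 ± 0.572 to 20.1 ± 3.81 CPM (1.78, edgeR adjusted p = 2.17e-06) and Cyp1b1 from 0.212 ± 0.186 to 2.74 ± 0.563 CPM (edgeR adjusted p = 9.81e-05). Nqo1, Cyp1a1 and Cyp1b1 stayed at or below 10.1 CPM in every library.

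Of 13 genes that handle 4-hydroxynonenal and lipid peroxides, all tested, 6 rose and 2 fell (33.3% and 32.2% over all genes tested). The median log2 fold change was 0.39. With the trend removed the 6 rises and 1 fall were kept. Gsta4, the glutathione transferase with a preference for 4-hydroxynonenal, rose from 97.1 to 111 CPM up to 289 to 357 CPM (1.65, edgeR adjusted p = 4.74e-08), and Gsta3 and Gsta1 rose by 2.98 and 1.40 (edgeR adjusted p = 8.86e-07 and 6.22e-06). The peroxidase Gpx1 fell from 215 ± 22.6 to 104 ± 6.16 CPM (edgeR adjusted p = 9.76e-07), a log2 fold change of -0.62 with the trend removed. Alpha-class transferases are close in sequence, so reads may be split among them.

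The fatty aldehyde, ether lipid and sphingolipid list around Aldh3a2 and Aldh3b1 moved in both directions. Of its 19 genes 17 were tested, 7 rose and 4 fell (33.3% and 32.2% over all genes tested), and the median was 0.07. With the trend removed 2 rises and 2 falls were kept, and the median was 0.02. Sphk2, a sphingosine kinase, fell by 1.76 on the log2 scale (edgeR adjusted p = 8.22e-08). The ether lipid enzymes Far1 (1.33, edgeR adjusted p = 2e-06) and Agps (edgeR adjusted p = 3.61e-05) rose, but they measured 0.13 and 0.02 with the trend removed and were no longer called.

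**Figure D2:**
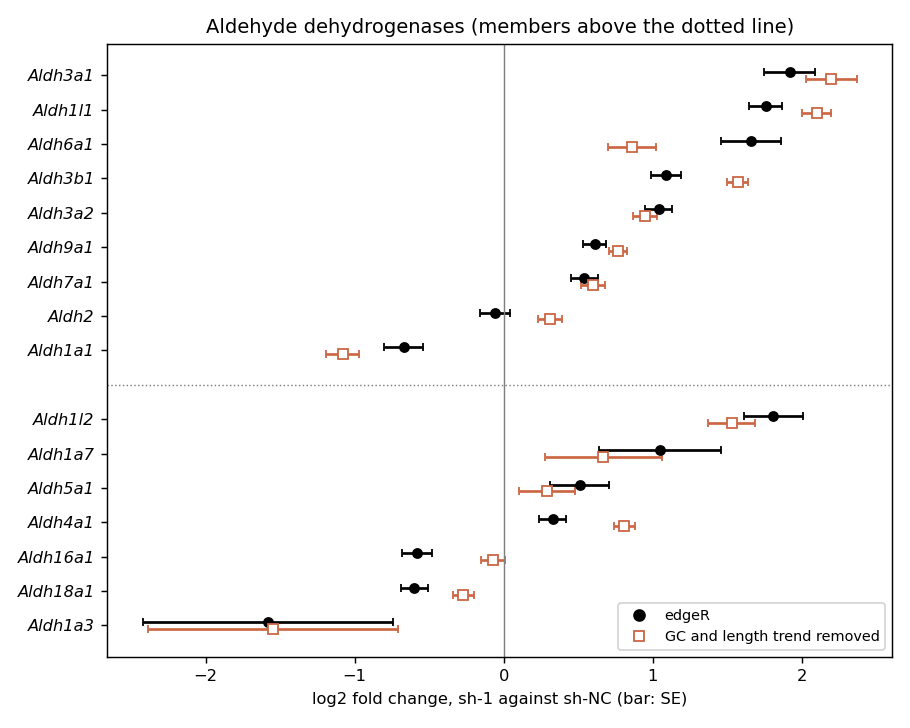
Log2 fold change of sh-1 against sh-NC with its SE for the 9 tested genes (above the dotted line) and the other 7 tested aldehyde dehydrogenases, before (filled circles) and after (open squares) removal of the GC content and length trend. Aldh1a1 is the only one of the 9 well below 0, and Aldh2 changes sign.

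Aldh6a1, methylmalonate semialdehyde dehydrogenase, was the lowest of the tested genes and about tripled. The gene (chromosome 12, 84430717 to 84451004, minus strand) measured 4.11, 3.23 and 3.89 CPM in sh-NC and 9.38, 13.0 and 13.1 CPM in sh-1. The groups did not overlap, with a log2 fold change of 1.66 (SE 0.20). With the trend removed it was 0.86 (SE 0.16); its transcript has 43.0% GC, the lowest among the tested genes, which ranged up to 57.2%. Exons of Aldh6a1 overlap Bbof1 on the other strand, which was at 0 to 0.603 CPM.

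Of 20 listed genes of valine, pyrimidine and propionate breakdown, 14 were tested, 10 rose and 2 fell (33.3% and 32.2% over all genes tested), with a median log2 fold change of 0.42; 9 rises and both falls were kept with the trend removed, with a median of 0.45. Mut, methylmalonyl-CoA mutase, rose from 6.36 to 9.31 CPM up to 37.4 to 40.9 CPM (2.25, edgeR adjusted p = 9e-08; 1.36 with the trend removed). Dld, a shared subunit of 2-oxoacid dehydrogenases, rose by 1.82 (edgeR adjusted p = 8.31e-08; 0.85 with the trend removed). Pcca, a propionyl-CoA carboxylase subunit, rose by 1.34 (edgeR adjusted p = 2.71e-07), and Bckdhb, of the branched-chain ketoacid dehydrogenase, by 1.18 (edgeR adjusted p = 7.37e-07). Bckdha, the partner subunit of Bckdhb, named here after its values were seen, fell from 103 ± 19.5 to 48.8 ± 3.18 CPM (-1.07, edgeR adjusted p = 1.29e-05; -0.56 with the trend removed).

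Aldh7a1, the lysine-pathway enzyme also called antiquitin (chromosome 18), measured 32.0, 30.8 and 31.7 CPM in sh-NC and 46.7, 44.5 and 45.9 CPM in sh-1. Replicates were tight and the groups did not overlap, with a log2 fold change of 0.54 (SE 0.09), or 0.60 (SE 0.08) with the trend removed. In the deposited FPKM (fragments that the authors divided by transcript length and by depth) the same gene was at 10.2, 10.7 and 10.4 against 12.6, 12.1 and 11.7, a log2 fold change of 0.20 on the log2(FPKM + 1) scale, which did not pass the threshold.

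The deposited counts and FPKM of Aldh7a1 thus differ in how far the groups are apart. The transcript length that links them (count divided by FPKM and library total) was 3171, 2772 and 2854 bases in sh-NC and 3731, 3864 and 4061 bases in sh-1. The shift of 0.37 log2 units, relative to the library median, was at the 98.9th percentile of 9614 genes, whose 5th to 95th percentile ran from -0.06 to 0.13. The other 8 tested genes shifted by -0.02 to 0.00. Exons of Aldh7a1 overlap Phax on the other strand, which measured 78.0, 68.9 and 69.1 CPM in sh-NC and 51.9, 52.5 and 56.2 CPM in sh-1; its part in either value was not tested.

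**Figure D3:**
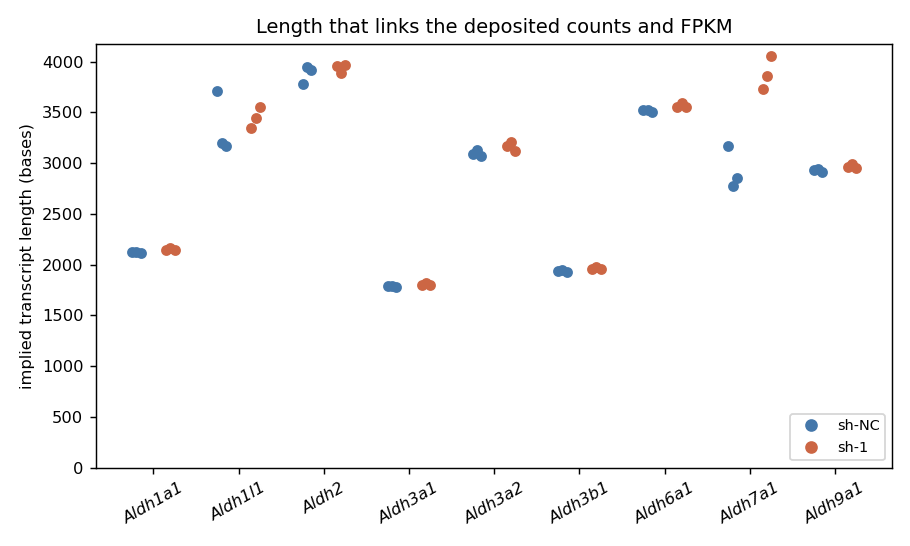
Transcript length implied by the deposited counts and FPKM for the 9 tested genes in each library (bases, axis from 0). Aldh7a1 lies at 2772 to 3171 bases in sh-NC and 3731 to 4061 bases in sh-1, while the groups of the other genes lie close together.

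The lysine, choline and betaine list holds few expressed genes. Of its 12 genes 6 were tested, 3 rose and 1 fell (33.3% and 32.2% over all genes tested). The median log2 fold change was 0.70. With the trend removed the 3 rises and not the fall were kept, and the median was 1.04. Gcdh, glutaryl-CoA dehydrogenase, rose from 23.7 ± 0.694 to 40.9 ± 0.636 CPM (0.78, edgeR adjusted p = 1.49e-05), and Sardh, sarcosine dehydrogenase, by 0.62 (edgeR adjusted p = 0.00126; 1.06 with the trend removed). Aadat, the aminoadipate aminotransferase, had 3, 0 and 0 counts in sh-NC and 19, 35 and 33 in sh-1 (edgeR adjusted p = 0.00076). Dlst, of the oxoglutarate dehydrogenase complex, fell by 0.23 (edgeR adjusted p = 0.0247), a call lost with the trend removed (-0.04) and without sh-NC replicate 2 or 3 or sh-1 replicate 2 or 3 (log2 fold change -0.24 to -0.17).

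Aldh9a1, which oxidises trimethylaminobutyraldehyde on the way to carnitine, had the tightest replicates. The gene (chromosome 1, 167349991 to 167368532, plus strand), whose promoter is shown above, measured 74.6, 73.9 and 74.0 CPM in sh-NC and 112, 112 and 115 CPM in sh-1. The groups were well apart, with a log2 fold change of 0.61 (SE 0.08), or 0.77 (SE 0.06) with the trend removed. The carnitine, polyamine and amine list did not share a direction. Of its 18 genes 15 were tested, 3 rose and 4 fell (33.3% and 32.2% over all genes tested), and the median was -0.13. With the trend removed 2 rises and 4 falls were kept. Sat1, which acetylates spermidine and spermine, fell from 126 ± 9.39 to 51.4 ± 1.60 CPM (-1.30, edgeR adjusted p = 1.04e-07; -2.02 with the trend removed), and Oaz1, the ornithine decarboxylase antizyme, by 0.59 (edgeR adjusted p = 0.000119; -0.17 with the trend removed). Among the amine oxidases that produce aldehydes, Maob rose by 1.55 (edgeR adjusted p = 9.39e-05; 1.03 with the trend removed). Maoa rose by 0.73 (edgeR adjusted p = 3.49e-05) but measured -0.30 with the trend removed.

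Of 24 alcohol dehydrogenases and aldehyde reductases or oxidases, which make, reduce or oxidise aldehydes, 21 were tested, 12 rose and 2 fell (33.3% and 32.2% over all genes tested), with a median log2 fold change of 0.68; 8 rises and 1 fall were kept with the trend removed, with a median of 0.47. Adh7, an alcohol dehydrogenase active on retinol and ethanol, rose from 66.2 ± 7.74 to 239 ± 36.6 CPM (1.85, edgeR adjusted p = 8.85e-08; 0.95 with the trend removed). Akr1c12 and Akr1c19, of the aldo-keto reductase family, rose by 1.62 and 1.63 (edgeR adjusted p = 4.62e-08 and 3.09e-06), or by 0.93 and 0.60 with the trend removed. Akr1c13 rose by 0.78 (edgeR adjusted p = 4.43e-06), a call lost with the trend removed (0.12). The Akr1c genes are close copies, so reads may be split among them.

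**Figure D4:**
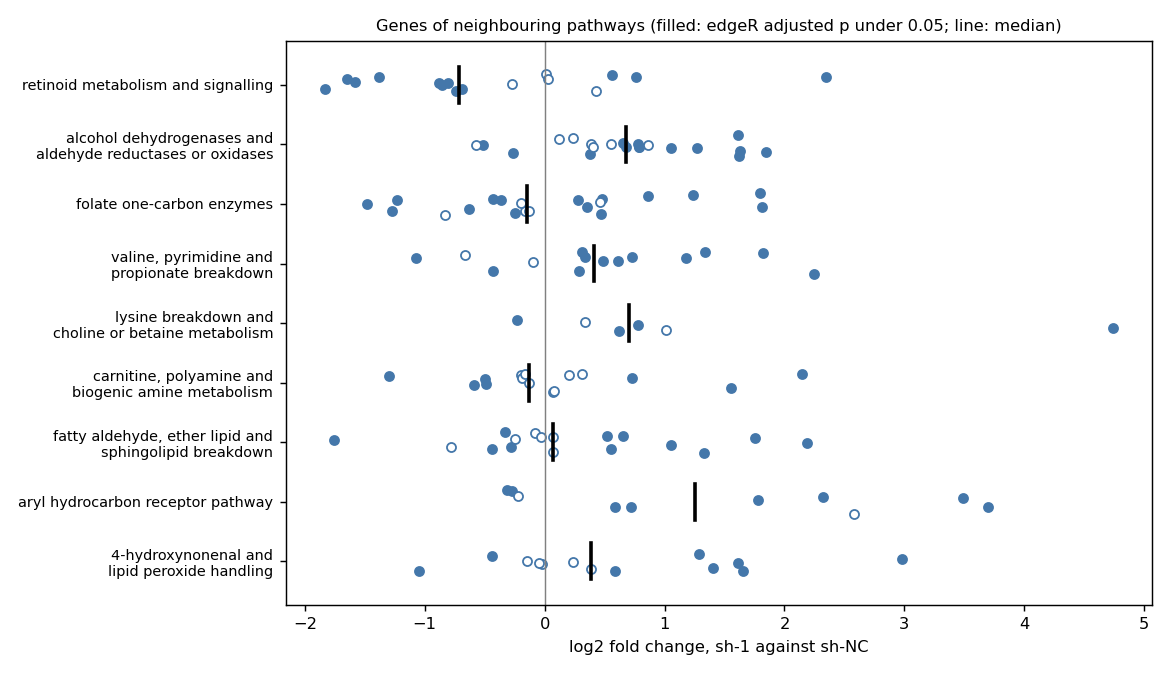
Log2 fold change of sh-1 against sh-NC for the tested genes of 9 pathway lists, 1 point a gene, filled where the edgeR adjusted p is under 0.05, with the list's median as a line. Medians run from -0.72 (retinoid genes) to 1.25 (aryl hydrocarbon receptor pathway), against 0 over all genes tested.

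Of the 11 other aldehyde dehydrogenase genes with a row, 7 were tested, 4 rose and 2 fell (33.3% and 32.2% over all genes tested). With the trend removed 2 rises and 1 fall were kept. Aldh18a1, which makes a proline precursor, fell from 99.8 ± 6.91 to 65.8 ± 4.93 CPM (-0.60, edgeR adjusted p = 8.99e-05; -0.27 with the trend removed). Aldh16a1 fell by 0.58 (edgeR adjusted p = 0.000302), but measured -0.07 with the trend removed, and its exons overlap Pih1d1 on the other strand. Aldh4a1, of proline breakdown, rose by 0.33 (edgeR adjusted p = 0.00436; 0.81 with the trend removed). Aldh5a1, the succinate semialdehyde dehydrogenase, was called at 0.51 (edgeR adjusted p = 0.0386) and Aldh1a7 at 1.05 (edgeR adjusted p = 0.0391). Both calls were lost with the trend removed (0.29 and 0.67). They were also lost without most single libraries, where the values were 0.42 to 0.55 and 0.71 to 1.07. Aldh5a1 was still called without sh-1 replicate 1 (0.64), and Aldh1a7 without sh-NC replicate 1 (1.65). With DESeq2 the call of Aldh5a1 was lost too (DESeq2 adjusted p = 0.0547). Aldh1a3 did not pass (-1.58, SE 0.84, edgeR adjusted p = 0.115), and Aldh1a2, Aldh3b2, Aldh3b3 and Aldh8a1 were too low to test.

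On the per-length scale of the deposited FPKM, the summed level of the 10 genes was higher in sh-1 and its make-up differed. The sum was 163, 163 and 162 FPKM in sh-NC and 239, 231 and 246 FPKM in sh-1 (163 ± 0.321 against 239 ± 7.81, SD, n = 3 each). Aldh2 held 33.1 ± 2.34% of it in sh-NC and 22.8 ± 1.71% in sh-1, while its own level was about the same, at 53.9 ± 3.73 and 54.3 ± 2.70 FPKM. Aldh1a1 held 16.6 to 20.6% and then 7.09 to 9.60%. Aldh3b1 held 11.2 to 12.2% and then 16.5 to 19.9%.

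**Figure D5:**
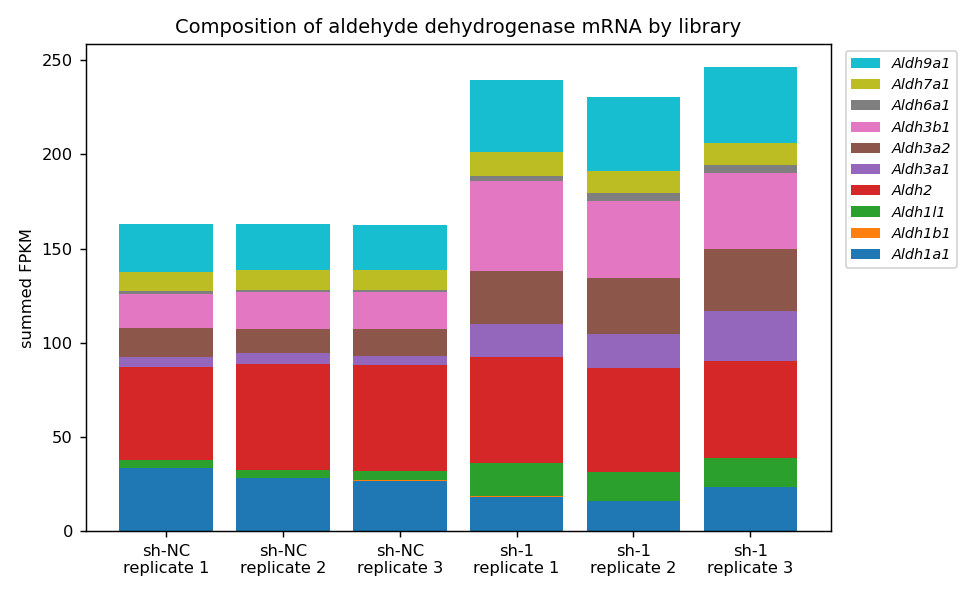
Deposited FPKM of the 10 genes stacked for each library (axis from 0). The 3 sh-NC bars reach 162 to 163 FPKM and the 3 sh-1 bars 231 to 246 FPKM.

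In sh-NC the levels ran from Aldh2 through Aldh1a1 (29.6 ± 3.48 FPKM), Aldh9a1 (24.6 ± 0.945), Aldh3b1 (19.3 ± 0.862), Aldh3a2 (14.0 ± 1.41) and Aldh7a1 (10.4 ± 0.286) to Aldh3a1 (5.19 ± 0.607), Aldh1l1 (4.64 ± 0.544), Aldh6a1 (1.03 ± 0.144) and Aldh1b1 (0.0243 ± 0.0213). Only the neighbours Aldh3a1 and Aldh1l1 overlapped in range. In sh-1 Aldh2 was followed by Aldh3b1 (43.1 ± 3.85 FPKM), Aldh9a1 (39.2 ± 1.10) and Aldh3a2 (30.1 ± 2.37). Aldh3a1 (20.7 ± 5.05), Aldh1a1 (19.5 ± 3.75) and Aldh1l1 (16.3 ± 1.32) came next, each overlapping its neighbour in that order, and then Aldh7a1 (12.1 ± 0.421), Aldh6a1 (3.42 ± 0.672) and Aldh1b1 (0.00669 ± 0.0116). Aldh1a1 thus moved from the second place to the sixth, within the spread of Aldh3a1 and Aldh1l1.

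Among the members, exons of Aldh2 also overlap Gm42879 on the other strand, and those of Aldh1l1 overlap Gm15756 on the other strand and Gm45901 on the same strand. Tm9sf1 overlaps Gm49747 on the other strand and Gm49378 on the same strand. Among the other named genes, an overlap on the other strand was found for Mut (Cenpq), Sardh (Sardhos), Ahr (Gm48236), Pcca (Ggact), Bckdha (B3gnt8), Far1 (Far1os), Sphk2 (Dbp and Rpl18), Aldh5a1 and Adh7, and on the same strand for Aldh4a1 (Gm21969) and Spp1 (Gm42793), among others. Reads of genes on opposite strands cannot be told apart if the counting ignored strand. In bulk libraries fewer cells that express a gene and less mRNA per cell cannot be told apart.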

How the data were processed

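Poly(A) mRNA of 6 AML12 libraries was sequenced. The submitters' processing notes name HISAT2, StringTie and the build GRCm38. Tool versions and the counting method were not given in the sources used here. The deposited table gives each gene a whole-number count in every library, left unnormalised by the authors as far as its header and values show. Per the file headers it gives FPKM too, which the authors scaled by transcript length and by depth. A comparison of A against B in the same table was not used, because nothing read here says which samples A and B are and its log2 fold changes differ in size from those of sh-1 against sh-NC. Replicates differed by more than sampling noise (chi-square per degree of freedom 14.2 to 52.1), so each of the 3 libraries per group was kept.

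Counts were analysed with edgeR 4.0.16 in R 4.3.3: filterByExpr, TMM scaling and a robust quasi-likelihood fit with group alone, two-sided, Benjamini-Hochberg adjusted over all 13197 genes tested, threshold 0.05. CPM are TMM-scaled, errors are SD over 3 libraries, and SE belongs to a log2 fold change. Gene positions, transcript GC content and length come from GENCODE M21 (GRCm38), available for 11956 tested genes; their trend in each library was fitted by splines (5 and 4 degrees of freedom) and entered as an offset, which also removes true changes shared by such genes. FPKM were tested with limma 3.58.1 on log2(FPKM + 1), which understates changes of low genes. DESeq2 1.42.0, RLE and upper-quartile scaling, no filter, a replicate block and leaving out each library were the other alternatives. The fits were also run on simulated counts. These held no group difference by GC content or length, so they cannot show how well the trend is removed. The members, the gene lists and the alternatives were chosen with earlier results of these data known; besides every aldehyde dehydrogenase and Tm9sf1, the text names up to 4 called genes of each pathway list, by smallest adjusted p, of which 3 are not reported here.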

Additional observations from a re-analysis of the deposited data

How the results depend on the processing

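Over all genes, 4395 were higher and 4253 lower in sh-1, and no alternative moved either count by more than 1.5 times; leaving out 1 library gave 4016 to 4494 higher and 3888 to 4254 lower. The count of members higher was 7, or 8 with the GC content and length trend removed and 6 with limma on FPKM, and 1 was lower under every alternative. The direction of Aldh2 (-0.06) was not stable: 0.01 with upper-quartile scaling, 0.31 with the trend removed, 0.01 with limma on log2(FPKM + 1), and -0.15 to 0.00 without 1 library each. Maoa reversed to -0.30 with the trend removed. The cause was not tested. Upper-quartile scaling shifted the median of all genes by 0.0682. Levels per kilobase of annotated transcript in place of FPKM gave the same order of the members, but Aldh1a1 and Aldh9a1 then overlapped in sh-NC and Aldh3b1 and Aldh9a1 in sh-1, while Aldh3a1 and Aldh1l1 in sh-NC and Aldh1a1 and Aldh1l1 in sh-1 no longer did. The numbers 2 and 3 occur in the titles of both groups; with them as a replicate block on those 4 libraries, 3861 genes were higher and 3617 lower, against 4068 and 3863 in the same libraries without the block, a comparison added after seeing the data. Same-numbered libraries did not deviate together (correlation 0.0302 and -0.0531), and the block changed no call of a member. Depth limits Aldh1b1, at 0 to 5 counts.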
